A study of Xenopus laevis with 2 samples.

Results

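The glucocorticoid-induced leucine zipper and its relative TSC-22 were followed on the 2 Agilent two-colour *Xenopus laevis* arrays of the series. Probes were taken by gene name (dsipi-prov) or by a description that named a glucocorticoid-induced gene, delta sleep inducing peptide, TSC22 or TSC-22, serum/glucocorticoid regulated kinase or FK506 binding protein 5. The search found 2 of 21495 gene probes: dsipi-prov, described as glucocorticoid-induced leucine zipper, and LOC494732, which carries the gene TSC-22 (tsc22d1.L). No probe was described as serum/glucocorticoid regulated kinase or FK506 binding protein 5 and none carried the symbol sgk or fkbp5, so neither gene has a value here. Another 12653 probes have only an EST description and could not be searched by gene. dsipi-prov was selected on its own log2 ratios on these 2 arrays, and the other rule terms are names only, so its values are a description and not a test.

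Animal caps, explants of blastula ectoderm, came from embryos injected with mRNA and were cut at stage 9. Per the paper, this series left out the Noggin mRNA that was used elsewhere to neuralize the caps. On the active EBF3 array, caps injected with 1 ng of hGR-Xebf3 mRNA and treated with 30 µM dexamethasone (DEX) for 4.5 h were labelled with Cy3. On the hGR array, caps injected with 0.4 ng of hGR mRNA and treated with DEX in the same way were labelled with Cy3. Both arrays carried untreated hGR-Xebf3 caps as the Cy5 reference. hGR-Xebf3 joins the transcription factor EBF3 to the part of the human glucocorticoid receptor that binds hormone, so that DEX switches the factor on. The hGR caps received that domain alone, so 2 things set them apart from their reference, the mRNA they were given and DEX. Each condition was measured on 1 array with 1 biological replicate and no dye swap, and the arrays were on separate slides. Dye, slide and condition therefore cannot be told apart, no p-value is given, and each error below covers the spot only.

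Glucocorticoids such as DEX enter the cell and bind the glucocorticoid receptor, which is held ready by chaperones and then moves to the nucleus to act on its target genes. In mammals, the glucocorticoid-induced leucine zipper (GILZ, gene TSC22D3) is one of the genes raised by this route, and its protein binds NF-kappaB, AP-1 and Raf and dampens their activity. SGK is a kinase raised by the same hormones that keeps epithelial sodium channels at the cell surface, and TSC-22 is a leucine zipper protein of the same family as GILZ.

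dsipi-prov was low in the DEX-treated hGR-Xebf3 caps and at a like level in the other 3 samples. Its processed intensity, the background-subtracted and dye-normalized signal in scanner units, was 226 ± 18.0 (software error) in the DEX-treated hGR-Xebf3 caps and 1541 ± 30.6 in their untreated reference. With hGR it was 1211 ± 35.9 in the DEX-treated hGR caps and 1274 ± 25.4 in the reference. The DEX-treated hGR-Xebf3 caps were thus the only channel of the 4 in which the spot was not well above background, a call that asks for 2.6 SD over background. In that channel the intensity exceeded that of 45.9% of probes, against 72.6% to 73.2% in the other channels.

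**Figure D1:**
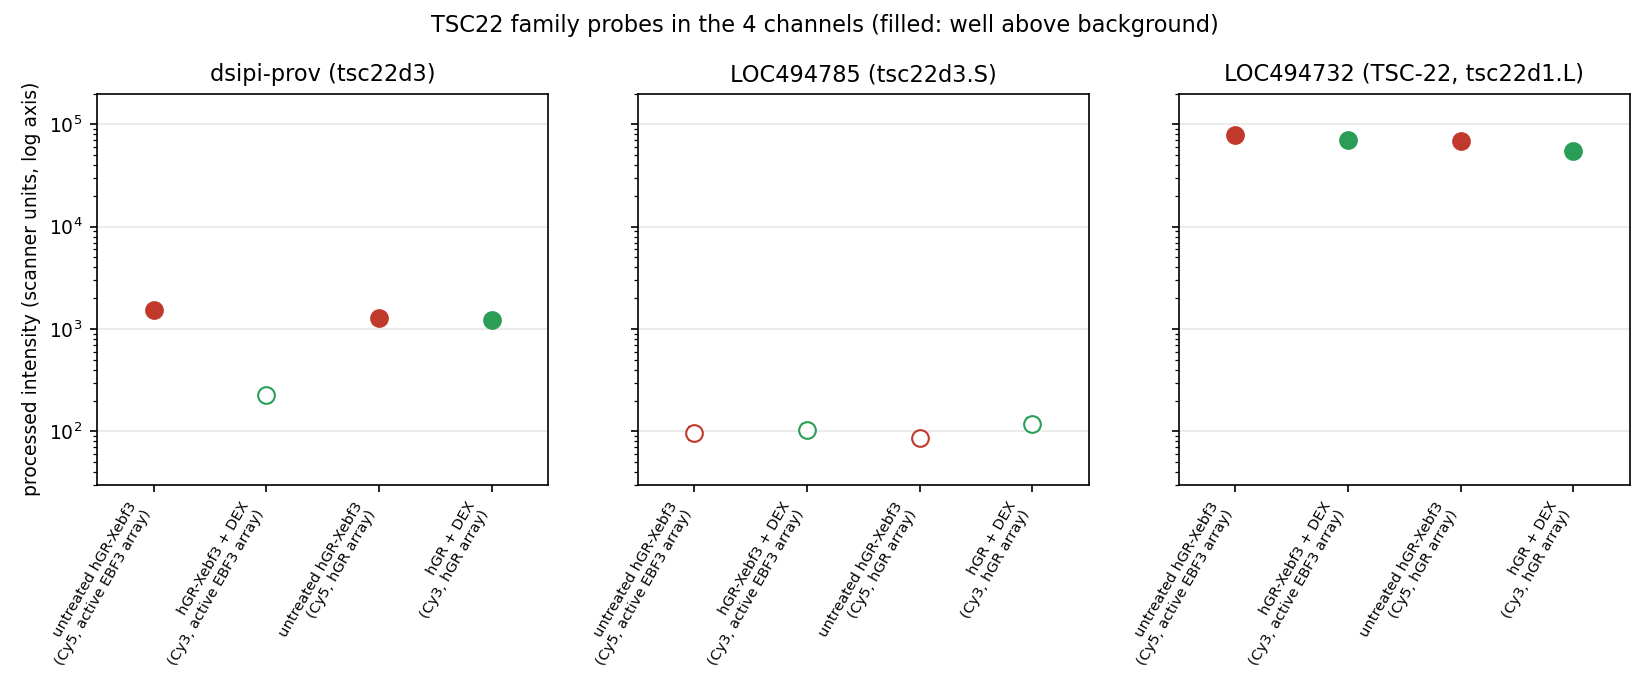
Processed intensity (scanner units, log axis) of the dsipi-prov, LOC494785 and LOC494732 probes in the 4 channels, Cy5 in red and Cy3 in green, with the software's error of each spot as bars, mostly smaller than the symbols. Filled symbols are well above background. dsipi-prov was at 226 in the DEX-treated hGR-Xebf3 caps and between 1211 and 1541 in the other channels.

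The log2 ratio of dsipi-prov, treated over reference, was −2.77 ± 0.31 (spot error) on the active EBF3 array, 6.83-fold lower than in the reference. The Cy3 spot was not well above background and its own value was used. The fold is thus the ratio of the processed signals and not a lower limit. For hGR caps the log2 ratio was −0.07 ± 0.18, or 1.05-fold lower, which is within the spot error. Of the 2 members, 1 passed 2-fold on the active EBF3 array, where 4.14% of 21283 uniform probes did (2.03% lower and 2.11% higher). Of the same 2, 0 passed 2-fold on the hGR array, against 5.09% of 21343 probes (4.08% lower and 1.02% higher). That share depends on dim spots: it was 2.72% with the deposited ratios and 2.3% with both channels well above background. In the difference between the arrays 1 of 2 passed, against 8.38% of 21219 probes (3.26% lower and 5.12% higher). Since dsipi-prov was selected on these ratios, nothing is read from the counts. These are bulk samples, in which fewer cells with the transcript and less transcript per cell cannot be told apart.

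Set directly against each other, the treated samples differed as the ratios did. After the channels were brought to one intensity scale by quantile normalization (Aquantile), dsipi-prov was lower in active EBF3 than in hGR caps by a log2 difference of −2.71, or 6.54-fold on that scale. The size depends on the scale: the processed signals as deposited differed 5.37-fold, and the ratios after normexp correction 2.34-fold. The untreated references of the 2 arrays differed by −0.01 for the same probe. Over 1529 probes with a reference level within 0.5 log2 units of dsipi-prov, the reference-to-reference difference had an SD of 0.14, and 2 of them passed 2-fold. The difference of the ratios, −2.70, was thus carried by the Cy3 channels. The SD of 0.14 is for spots well above background and does not cover a dim spot. Between the Cy3 channels, whose samples differ, the SD was 0.63 over 10010 probes well above background on both arrays. Of these, 690 (6.89%) passed 2-fold.

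Before normalization the DEX-treated hGR-Xebf3 caps were again the lowest of the 4 channels, while the order of the others was not that of the processed signals. In the DEX-treated hGR-Xebf3 caps the spot mean was 68.1 over a local background of 48, and 16.1 units remained after subtraction. In the untreated reference on that array the spot mean was 172 over 58, and 115 units remained. For the hGR array, 81.6 units remained in the treated channel and 152 in the reference. The low channel was therefore a dim spot, and the size of its ratio depended on how background was treated. With normexp correction and an offset of 50, which pulls dim spots towards each other, the log2 ratio on the active EBF3 array was −1.28, or 2.43-fold lower.

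**Figure D2:**
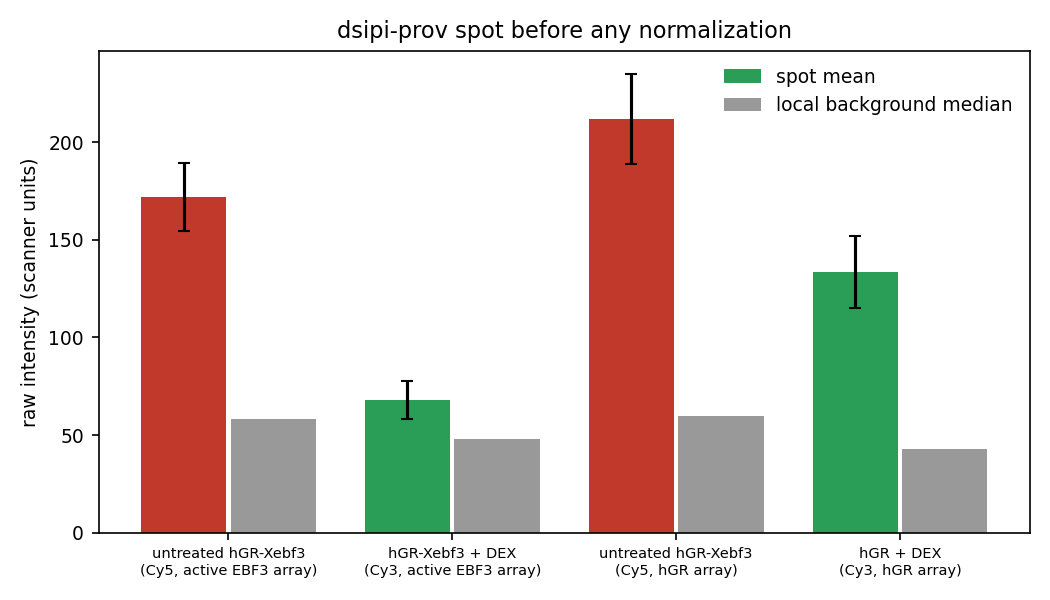
Mean raw intensity of the dsipi-prov spot (red Cy5, green Cy3; bars show the SD over pixels) and the median of its local background (grey) in each channel, in scanner units. The spot stood at 68.1 over a background of 48 in the DEX-treated hGR-Xebf3 caps and at 134 over 43 in the DEX-treated hGR caps.

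**Figure D3:**
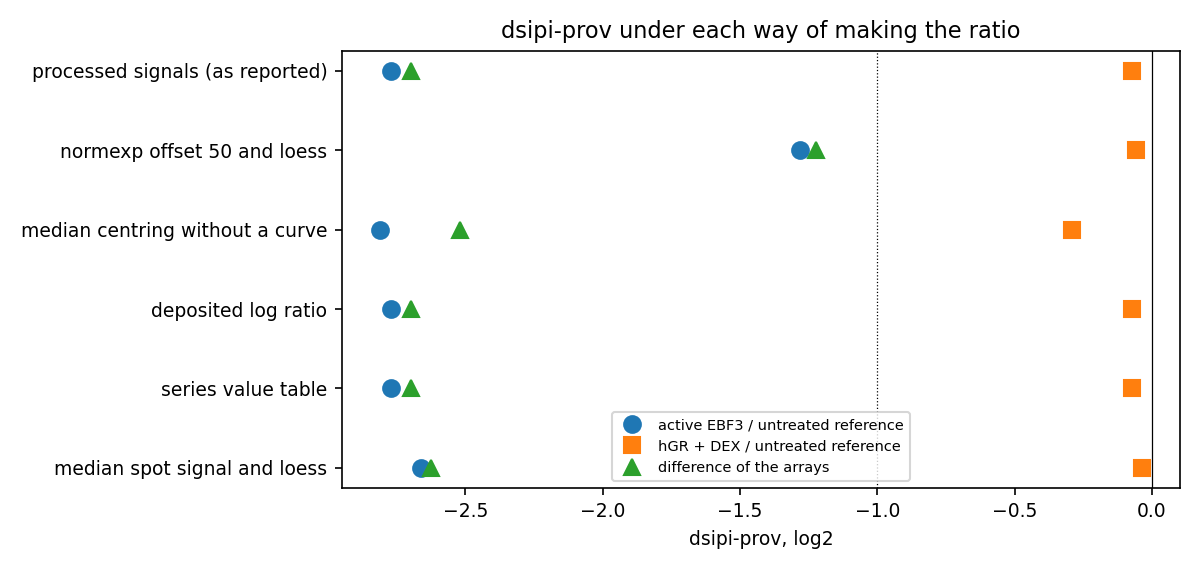
log2 value of dsipi-prov on each array and its difference between arrays under 6 ways of making the ratio. The dotted line marks 2-fold lower. The deposited log ratio and the series value table repeat the value from the processed signals. The active EBF3 ratio lay between −2.81 and −1.28, and the hGR ratio between −0.29 and −0.04.

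RefSeq lists dsipi as another name of both tsc22d3.L and tsc22d3.S, the copies of the gene on the paired chromosomes of this tetraploid frog, so the copy read by dsipi-prov was not settled by name. A separate probe, LOC494785, is listed as tsc22d3.S, although the array calls it a hypothetical gene. Its processed intensity was 104 in the DEX-treated hGR-Xebf3 caps and 96.1 in their reference, and 119 in the DEX-treated hGR caps and 85.4 in theirs. None of the 4 spots was well above background, so no fold is given and a change of this copy was not detectable at this signal.

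TSC-22, the other member, was bright and differed little between samples. Its processed intensity was 70992 in the DEX-treated hGR-Xebf3 caps and 78812 in their reference, and 55208 in the DEX-treated hGR caps and 68267 in theirs. All 4 spots were well above background and unsaturated, and each exceeded at least 98.9% of probes. The log2 ratio was −0.15 ± 0.16 (spot error), or 1.11-fold lower, for active EBF3 caps and −0.31 ± 0.16, or 1.24-fold lower, for hGR caps. The first is within the spot error and the second is larger than it, while both are far from 2-fold. Between the treated samples TSC-22 was 1.20-fold higher in active EBF3 caps on the common intensity scale, a log2 difference of 0.26, beside 0.11 between the references.

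The receptors for the hormone were detected in every channel and none passed 2-fold. The probe xGR, for the glucocorticoid receptor (nr3c1.L), read 1834 in DEX-treated hGR-Xebf3 caps against 1555 in the reference and 1477 in DEX-treated hGR caps against 1180. It was 1.18-fold and 1.25-fold higher in the treated samples. A second probe of nr3c1.L, gcr-A-prov, read 627 against 673 and 506 against 471, with log2 ratios of −0.10 and 0.10. The mineralocorticoid receptor, Nr3c2, which also binds glucocorticoids, read 1304 against 1592 and 1076 against 1351, or 1.22-fold and 1.26-fold lower. Whether these frog probes read the injected human domain was not tested.

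**Figure D4:**
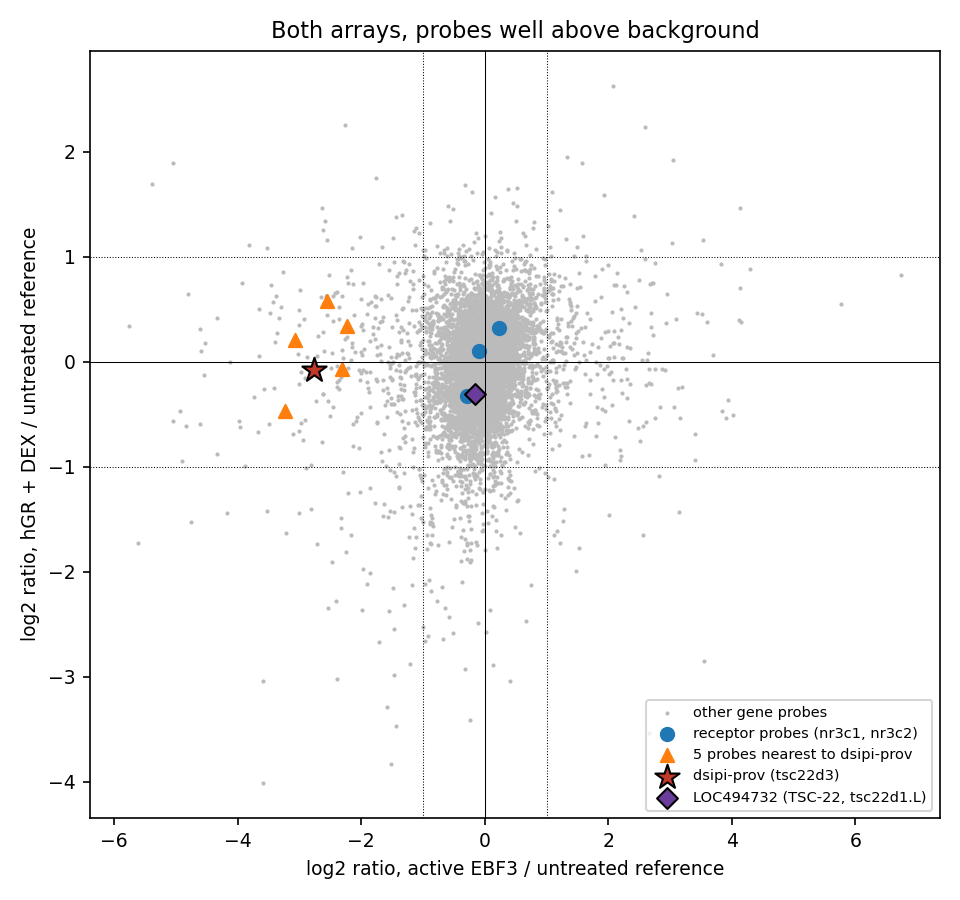
log2 ratios of 11429 probes for active EBF3 caps (x axis) and hGR caps (y axis), each with 1 channel or more well above background on both arrays; dotted lines mark 2-fold. dsipi-prov (star) lies at −2.77 and −0.07, whereas TSC-22 (diamond) and the 3 receptor probes (circles) lie within 2-fold on both axes.

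Chaperones of the receptor had ratios within 2-fold. Together with the receptors the list held 6 probes for 5 of 7 genes sought, with 0 past 2-fold on either array and medians of −0.19 and 0.02, beside −0.09 and −0.06 over all probes. Over all probes 4.14% and 5.09% passed 2-fold, so a count of 0 among so few does not set this list apart. The hsp90 probe hspcal3-prov had log2 ratios of 0.00 for active EBF3 and 0.48 for hGR caps. The co-chaperone p23 (tebp-prov) had −0.51 and −0.33, and the chaperone hsc70 (hsc70-prov) had −0.63 and −0.07.

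Other genes that glucocorticoids raise in mammals were covered in part. Probes were found for 8 of 19 genes sought, 11 probes in all, and 0 passed 2-fold on either array, beside 4.14% and 5.09% of all probes, with medians of −0.14 and −0.24. A count of 0 among so few probes does not set the list apart from all probes. Of these, 5 were not well above background in any channel, and 4 were in all. Those 4 were per1-A, for a clock gene, bteb1-A, for the Kruppel-like factor Klf9, LOC432336, for the EGF receptor inhibitor errfi1, and anxa1-prov, for annexin A1. Their log2 ratios were 0.05, −0.07, −0.37 and 0.03 for active EBF3 caps, and for hGR caps they were −0.40, −0.24, −0.25 and −0.10. All 4 lay within 2-fold in DEX-treated hGR caps.

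Among the partners and substrates of SGK, 17 probes for 6 of 8 genes sought were found, with medians of 0.13 and −0.04. Probes matched to the sodium pump gene atp1a, counted there, include atp1b1a-prov, atp1b2-prov, atpb-3 and LOC397916 (fxyd2.S), which carry other gene names. On the active EBF3 array 1 was higher and 0 lower than 2-fold, beside 2.11% and 2.03% of all probes. A count of 1 among so few probes does not set the list apart from all probes. The higher probe was ndr1-prov, for the SGK substrate NDRG1, at 462 in the treated caps and 106 in the reference, at least 2.26-fold higher. In the hGR comparison it read 73.4 and 80.7, not well above background in either channel, so no fold is given there. On the hGR array 1 probe was lower, beside 4.08% of all probes. It was FoxO3, a forkhead factor that SGK phosphorylates, at 2228 in treated caps and 4598 in the reference, or 2.06-fold. On the active EBF3 array FoxO3 read 3245 and 4956, or 1.53-fold lower. The epithelial sodium channel subunit alphaxENaC had log2 ratios of 0.36 and 0.47, within 2-fold. Other subunit probes above background in all channels did not share its higher ratios on both arrays. They were gamma2xENaC-A at −0.40 and 0.24, LOC397893 at −0.02 and −0.04, and scnn1b-A-prov at −0.09 and −0.26.

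Binding partners of GILZ also lay within 2-fold. There were 10 probes for 5 of 6 genes, with 0 past 2-fold on either array and medians of −0.02 and −0.03. Over all probes 4.14% and 5.09% passed, so a count of 0 does not set these few apart. Probes matched to rela include rel-A and rel3, which are listed for the related gene rel. The spot of kras-A was left out for active EBF3 caps because it was not uniform. The NF-kappaB subunit rela-A-prov had log2 ratios of −0.29 and −0.02, and c-raf had 0.20 and −0.01. For the WNK pathway, which TSC22 proteins bind in mammals, 1 of 4 genes had a probe, osr1-prov, described as oxidative-stress responsive 1, with ratios of 0.07 and −0.03.

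**Figure D5:**
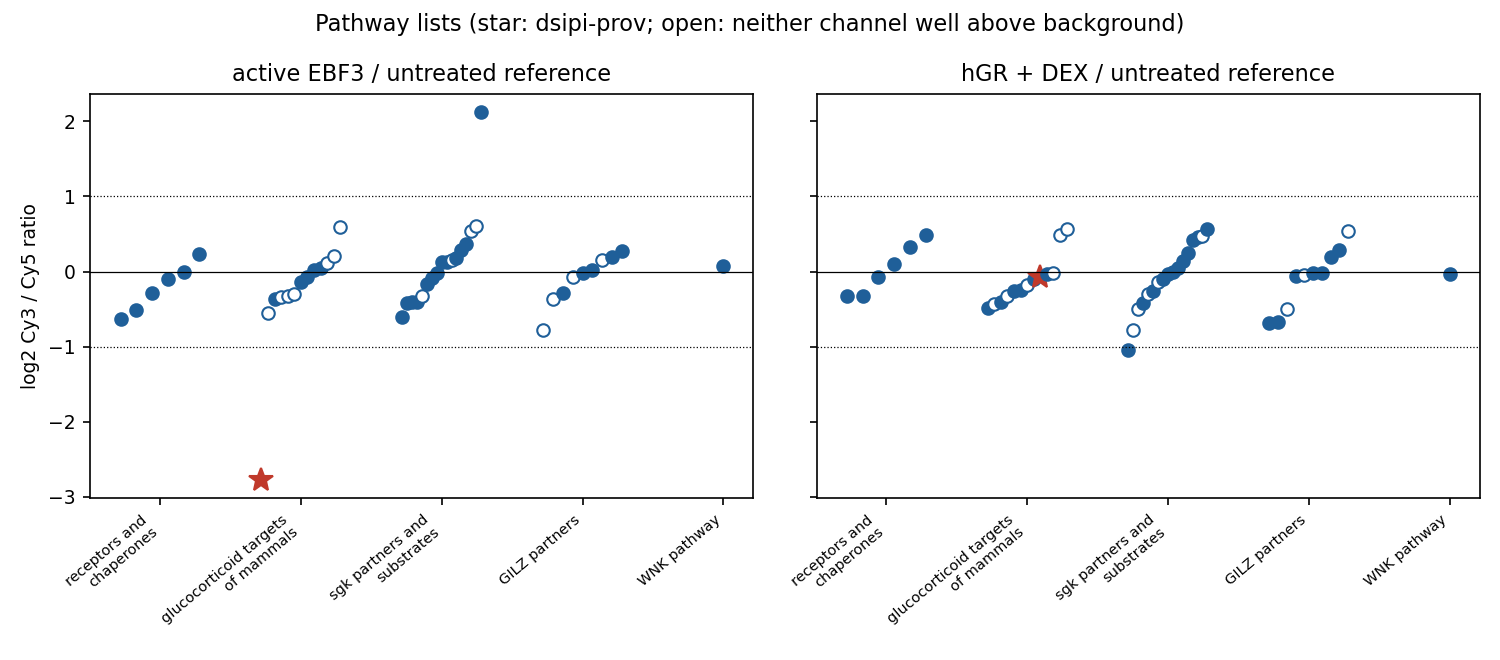
log2 ratios of the probes in the 5 pathway lists on each array, with dsipi-prov as a star and open symbols for spots not well above background in either channel; dotted lines mark 2-fold. dsipi-prov at −2.77 and ndr1-prov at 2.13 stand outside the lines on the active EBF3 array, and FoxO3 at −1.05 on the hGR array. The reference spot of ndr1-prov was not well above background, so only at least 2.26-fold higher can be said of it.

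The annotated probes closest to dsipi-prov over both log2 ratios, among 81 with the same pattern of background calls, were cdx4-prov, MGC84182, MGC81939, plasticin-prov and slc38a2-prov. Their distances from it were 0.41 to 0.69 log2 units, over 2 ratios only. cdx4-prov, a caudal homeobox factor, read 123 against 1033 on the active EBF3 array, at least 4.95-fold lower, with a log2 ratio of 0.21 on the hGR array. MGC84182 was at least 2.34-fold lower and MGC81939 at least 5.43-fold lower, with −0.07 and −0.47 on the hGR array. plasticin-prov, the intermediate filament protein peripherin, was at least 2.47-fold lower, and slc38a2-prov, an amino acid transporter, at least 3.10-fold lower, with 0.34 and 0.58. The study names another clone on the array, MGC68948, peripherin, and that probe, looked up after values had been seen, read 10697 against 658 on the active EBF3 array, 16.3-fold higher, and 291 against 413 on the hGR array. The probes called peripherin thus had opposite signs in active EBF3 caps. The nearest probes were ranked by closeness to the ratios of dsipi-prov, so their low ratios follow from how they were chosen and are not a separate result. The background calls also ask for a low treated hGR-Xebf3 channel.

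Markers of the cell types that caps can hold differed between the arrays in some lists and not in others. Of 10 epidermal probes, 4 were at least 2-fold lower and 1 higher on the active EBF3 array, beside 2.03% and 2.11% of all probes. The higher probe was XGATA-3, 6.05-fold higher there and 4.72-fold higher on the hGR array. On the hGR array dlx3-A-prov was not uniform, and of the other 9 probes 0 were lower and 2 higher, beside 4.08% and 1.02%. These all-probe shares, taken without bounds, also stand beside the counts below. The summed processed intensity of the 10 epidermal probes was 440368 in DEX-treated hGR-Xebf3 caps and 906155 in the reference, and 732803 in DEX-treated hGR caps and 644608 in theirs. Most of each sum was 1 keratin probe, LOC397756, whose reference spot was saturated on the hGR array. On the active EBF3 array its reference spot was not flagged, but the spot mean of 64878 was close to the 65227 of the saturated spot. Without this probe the sums were 24947 against 90627 and 119699 against 79450. Of 5 ionocyte probes, 1 was at least 2-fold lower on each array once bounds were used, and the sums of all 5 were 6248 against 91738 and 27605 against 76321. Most of that sum was foxi1-prov, the defining ionocyte factor, in every channel except the DEX-treated hGR-Xebf3 caps. It read 1728 against 84292, 48.8-fold lower, and 21102 against 69646, 3.30-fold lower. Without foxi1-prov the sums were 4520 against 7446 and 6503 against 6674. Of 7 multiciliated cell probes 0 passed 2-fold on either array, with the tuba6-prov spot left out for active EBF3 caps as not uniform. That list mixes foxj1 probes with alpha tubulin probes of several genes, so its count does not describe the cell type alone. The probes foxJ1' and foxJ1 had log2 ratios of −0.72 and −0.98 for active EBF3 caps and −0.23 and −0.44 for hGR caps. Of 6 neural probes 1 passed 2-fold, Sox-2, which was 6.63-fold higher in active EBF3 caps and 1.69-fold higher in hGR caps. Of those 6, 2 were not well above background in any channel and 2 were in all, so the count says little of neural cells. Of 3 cement gland probes 0 passed 2-fold once bounds were used. Of 6 mesodermal probes, 2 (LOC397758, the muscle factor MyoD, and XMyf-5) were higher in active EBF3 caps and 0 in hGR caps, whereas both brachyury probes were not well above background in any channel. Of 5 endodermal probes 4 were above background nowhere. The part of these cell types in the low dsipi-prov value was not tested.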

How the data were processed

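Per the file headers, the deposited intensity values were made by the authors with Agilent Feature Extraction 8.1.1.1 (background subtraction, spatial detrending, dye normalization), and the same files hold the deposited log10 ratios, their errors and p-values; the p-values were not used. The series value table, also log10 ratios by the authors, was used as an alternative. The log2 ratio is log2 of treated (Cy3) over reference (Cy5) processed signal. Non-uniform spots (212 and 152) were left out; on the active EBF3 and hGR arrays, Cy3 was well above background for 52.5% and 49.4% of probes and Cy5 for 54.1% and 57.8%. The number of arrays, 1 per comparison, limits the precision. Called means past 2-fold. A fold with 1 channel not well above background was taken against the higher of that spot's own value and a floor. The floor is the lowest signal among probes well above background, after Aquantile normalization in limma 3.58.1 (R 4.3.3). The fold is a bound where the floor was used. Where the spot's own value was higher, as for dsipi-prov, the fold is the ratio itself. Python 3.11.15 and pandas 2.3.3 did the rest. RefSeq names matched 3562 probes. Named were all members, pathway list genes past 2-fold with the brighter channel above background, the receptors, and the 5 annotated probes nearest to dsipi-prov; other list genes and markers are examples. Members and lists were chosen with earlier results of these data known, and the search terms of the lists were corrected for false matches after values had been seen. The log2 ratio and the 2-fold call were run on simulated fold changes put on the Cy5 levels, which checks the arithmetic only. Background calls, bounds and normalizations were not part of that check. Sequences of probes were not used here.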

Additional observations from a re-analysis of the deposited data

Results flagged for a closer look

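Of the probes nearest to dsipi-prov, 3 had ratios of opposite sign on the arrays, with 1 array a side, and the difference between the arrays was not tested. They were picked for ratios close to those of dsipi-prov, so the size of their differences follows from that choice. The hGR ratios were small: 0.21 ± 0.19 (spot error) for cdx4-prov, 0.34 ± 0.24 for plasticin-prov and 0.58 ± 0.21 for slc38a2-prov. All were within 2-fold, so the opposite signs do not show a reversal. The log2 ratio of cdx4-prov was lower for active EBF3 than for hGR caps by a difference of −3.28, that of plasticin-prov by −2.57 and that of slc38a2-prov by −3.13, each with its treated hGR-Xebf3 spot not well above background. These differences rest on dim spots and are not measured sizes. Between the treated samples on the common intensity scale, only at least 5.57-fold, 3.00-fold and 4.57-fold lower can be said, in that order.
MGC68948, the other probe called peripherin, also had opposite signs, with a difference of 4.53, which was not tested.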

How the results depend on the processing

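dsipi-prov stayed lower on the active EBF3 array under all 5 other ways of making its ratio (−2.81 to −1.28). The deposited log ratio and the series value table repeat the main value of −2.77, so they are not separate checks. Its log2 ratio there was −1.28 after normexp with an offset of 50, and the difference between arrays was −1.22; the offset shrinks dim spots by construction. Median centring without a curve gave −0.29 on the hGR array and −2.52 for the difference. By construction it takes background-subtracted signals and leaves out the dye normalization curve of the processed signals. Requiring both channels well above background left 0 members past 2-fold for active EBF3 caps and 0 in the difference, since dsipi-prov was then left out. On the hGR array the count stayed at 0 under all 11 alternatives. A stricter threshold or background filter could not have raised it. Over 130 alternative values of 21 results, 111 stayed within the limits used (0.17 log2 units, the reference-to-reference SD, for ratios and 1.5 times for counts), 19 did not, and 0 called values changed sign. Values within 2-fold are not called, and some of them did change sign. The difference between arrays went from −0.36 to 0.34 for LOC494785 with median spot signals. For gcr-A-prov it went from −0.20 to 0.02 with the Cy3 channels set against each other. Many of the 111 could not have moved. The deposited ratios and the series value table repeat the main ratios of these probes, and taking only members named directly keeps the same members. The tally is thus not a measure of robustness. Over all probes, 882 passed 2-fold on the active EBF3 array (450 higher, 432 lower), against 380 with normexp, 2771 with median centring (1889 higher, 882 lower), 1387 with median spot signals and 526 with both channels above background. On the hGR array the counts were 1087 (217 higher, 870 lower), 101 with normexp, 3499 with median centring (2826 higher, 673 lower), 749 with median spot signals (260 higher, 489 lower), 580 with the deposited ratio (217 higher, 363 lower) and 240 with both channels above background; for the difference they were 1779 (1087 higher, 692 lower), 462 with normexp (234 higher, 228 lower), 3435 with median centring (1284 higher, 2151 lower), 653 with both channels, 1865 with median spot signals (930 higher, 935 lower), 1259 with the series value table (640 higher, 619 lower) and 1329 with the Cy3 channels set against each other (657 higher, 672 lower). With 1 channel or more above background 443 passed for hGR and 926 for the difference. At 5-fold the counts were 227, 34 and 255, and at 1.5-fold 2421, 3404 and 4192. No paired analysis was possible because each condition has 1 array.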
